A study of Mus musculus with 4 samples.

Results

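The genes of RNA polymerase II and of the factors that carry it through elongation were followed in mouse T helper 17 (Th17) cultures. They were taken by symbol from a list of polymerase II subunits and of pausing, elongation and histone chaperone factors that work with Setd2. All 42 listed genes were among the 34745 genes of the table, and all 42 passed the filter on low counts, as did 12927 genes in all. RNA sequencing gave 4 libraries from CD4+ T cells of the spleen of C57BL/6 mice, which were naive at the start and spent 3 days in Th17 polarizing culture. Of these, 2 came from wild-type mice (WT 13 and 15) and 2 from mice whose genotype is labelled Setd2-CD4 cre (22 and 24). Setd2 encodes the enzyme that trimethylates lysine 36 of histone H3, and Cre under Cd4 control acts in developing T cells of both the CD4 and CD8 lineages. Which Setd2 exons were removed is not stated, and whether WT mice carried Cre or the altered allele is not given in the sources used here. The libraries held 11007343 to 12518415 counts, and levels are given as CPM, counts per 1000000 counts of the library after TMM scaling. Setd2 itself had 184 and 176 CPM in the WT libraries against 144 and 153 CPM in Setd2-CD4 cre, without overlap and without passing the test used below (log2 fold change -0.28 with SE 0.10, edgeR adjusted p = 0.0748), and it passed with upper-quartile factors, with library totals, by limma-trend and without Setd2-CD4 cre 24. That sum over the gene does not show which exons were removed.

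Polymerase II makes messenger RNA as an assembly of 12 subunits, the largest of which, Polr2a, carries a long repeated tail known as the C-terminal domain (CTD). Soon after initiation the enzyme pauses near the start of a gene, held by the factors DSIF and NELF. The kinase P-TEFb, made of Cdk9 and a T-type cyclin, releases it, and the super elongation complex and the PAF1 complex accompany it along the gene. Setd2 binds the phosphorylated CTD of the elongating enzyme, while the histone chaperones Supt6, Iws1 and FACT (Supt16 with Ssrp1) open nucleosomes ahead of it and restore them behind it.

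Among these genes 6 rose and 6 fell in Setd2-CD4 cre, judged by the quasi-likelihood test of edgeR with a Benjamini-Hochberg adjusted p under 0.05. The genes that rose were Supt4a, Ell2, Ccnk, Polr2e, Ell and Aff4, and those that fell were Polr2a, Polr2b, Polr2f, Supt16, Larp7 and Nelfcd. The 12 called genes are 28.6% of the set, near the 30.7% of all tested genes that were called (16.2% higher and 14.5% lower). The median log2 fold change of the set was 0.084, beside -0.0088 over all tested genes. The counts changed with the library left out, in fits where the lone library of a genotype is taken to vary like the other genotype. Leaving out WT 13 gave 4 higher and 0 lower (all tested genes: 6.24% and 4.8%, 11.0% together), and leaving out WT 15 gave 3 higher and 0 lower (all tested genes: 4.88% and 3.66%, 8.54% together). Leaving out Setd2-CD4 cre 22 gave 12 higher and 8 lower (all tested genes: 19.6% and 17.2%, 36.8% together), and leaving out Setd2-CD4 cre 24 gave 9 higher and 6 lower (all tested genes: 22.8% and 21.4%, 44.1% together).

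The largest rise of the set was in Supt4a, and the fall with the smallest p was in Polr2a, so the sequences just upstream of both genes are shown. Each is 250 bases of RefSeq (GRCm38.p6), read 5′ to 3′ on the strand of the gene and ending at the base before the listed start. The Polr2a window is chr11:69758634-69758883 on the minus strand, and the Supt4a window is chr11:87737301-87737550 on the plus strand. GENCODE M21 places 4 and 0 of their bases in an exon. Capitals mark promoter motifs found on either strand.
Polr2a: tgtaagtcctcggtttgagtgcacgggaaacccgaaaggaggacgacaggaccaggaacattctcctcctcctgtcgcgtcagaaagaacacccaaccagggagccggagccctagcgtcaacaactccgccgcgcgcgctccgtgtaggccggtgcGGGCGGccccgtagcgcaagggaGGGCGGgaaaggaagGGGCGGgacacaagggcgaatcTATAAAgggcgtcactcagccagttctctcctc
Supt4a: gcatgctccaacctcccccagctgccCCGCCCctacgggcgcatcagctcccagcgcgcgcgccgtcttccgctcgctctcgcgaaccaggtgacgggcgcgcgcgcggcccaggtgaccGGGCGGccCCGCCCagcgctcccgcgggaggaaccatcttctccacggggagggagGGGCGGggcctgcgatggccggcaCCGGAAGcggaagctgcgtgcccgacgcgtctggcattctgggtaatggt
The capitals in Polr2a are 3 GC boxes (GGGCGG, letters bound by Sp1) followed by a TATA box (TATAAA) close to the start. Those in Supt4a are 4 GC boxes, which read CCGCCC where the match is on the other strand, and an ETS motif (CCGGAAG).

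The windows of the other genes were searched for the same motifs, 8 in all, on both strands. The share of windows of tested genes (11933) and of all windows (32851) that hold a motif follows each count, in that order. RefSeq promoters matched 34 of the 42 genes, with 38 starts, and Ctr9, Iws1, Nelfcd, Nelfe, Polr2d, Polr2g, Polr2k, Tcea1 were not matched. The GC box was in 31 of 38 windows (81.6%, beside 57.2% and 32.7%). The windows of the set were also richer in G and C, with a median of 62.8%, beside 59.6% and 52.4%. Their median count of CG pairs was 23.5, beside 15 and 6. The part of base composition in the motif counts was not tested. The ETS motif was in 9 of 38 windows (23.7%, beside 13.8% and 6.91%). The CCAAT box was in 11 of 38 windows (29.0%, beside 35.6% and 33.8%). The TATA box was in 3 of 38 windows (7.90%, beside 6.24% and 12.4%), namely those of Nelfb, Polr2a and Polr2c. The E-box CACGTG was in 3 of 38 windows (7.90%, beside 8.30% and 6.02%), and the cyclic AMP element TGACGTCA in 2 of 38 windows (5.26%, beside 2.64% and 1.55%), those of Ell2 and Larp7. The NRF1 motif and the heat shock element matched no window of the set, beside 1.66% and 0.352% of windows of tested genes. These matches describe letters only. GC boxes occurred upstream of genes that rose, such as Ell2 and Polr2e, and of genes that fell, such as Polr2b and Supt16.

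**Figure D1:**
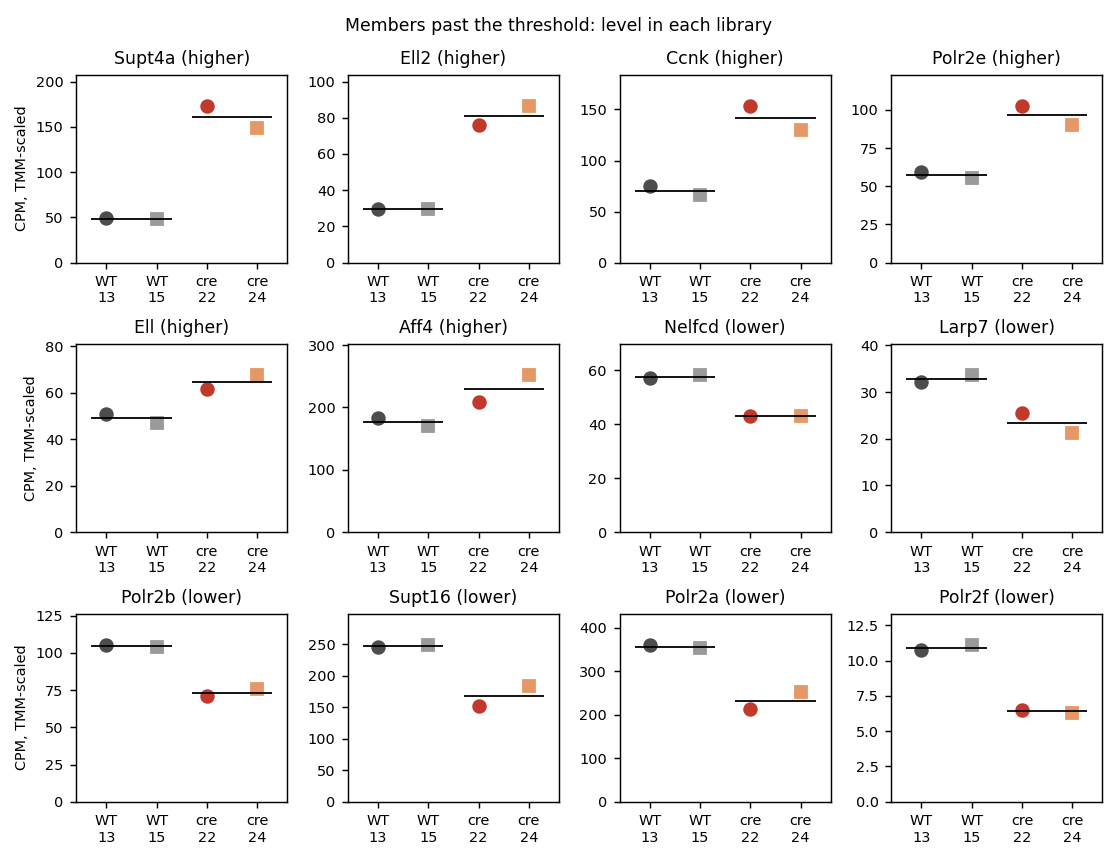
Level of the 12 genes past the threshold in each library. Each panel is a gene, the y axis is CPM from 0, the x axis is the library (cre stands for Setd2-CD4 cre) and lines are means of 2 libraries. In every panel both Setd2-CD4 cre libraries lie on the same side of both WT libraries, from Supt4a, 3.31-fold higher, to Polr2f at a log2 fold change of -0.77.

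Both large subunits of the enzyme fell. Of the 12 core subunits, 1 rose, 3 fell and 8 did not pass. The share called was 33.3%, near the 30.7% of all tested genes (16.2% higher and 14.5% lower). The catalytic subunit Polr2a (chromosome 11, 69733997 to 69758637, GRCm38) had 360.0 and 352 CPM in the WT libraries against 213 and 251 CPM in Setd2-CD4 cre. Means were 356 ± 5.69 and 232 ± 27.3 CPM (WT and Setd2-CD4 cre, SD, n = 2 libraries), and the difference passed the test (log2 fold change -0.62 with SE 0.12, edgeR adjusted p = 0.00802). Polr2b (chromosome 5, 77310147 to 77349324), which forms the other side of the active-site cleft, had 105 and 104 CPM in the WT libraries against 70.9 and 75.9 CPM in Setd2-CD4 cre (log2 fold change -0.51 with SE 0.11, edgeR adjusted p = 0.0120). Neither gene's genotypes overlapped.

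Polr2f and Polr2e, which polymerases I and III also use, moved in opposite directions. Polr2f (chromosome 15, 79141009 to 79151774) had 10.8 and 11.1 CPM in the WT libraries against 6.53 and 6.33 CPM in Setd2-CD4 cre (log2 fold change -0.77 with SE 0.21, edgeR adjusted p = 0.0300). It rests on 141 and 146 counts in the WT libraries and on 67 and 69 counts in Setd2-CD4 cre. Polr2e (chromosome 10, 80035949 to 80039795) was higher in both Setd2-CD4 cre libraries, with 59.4 and 55.2 CPM in the WT libraries against 103 and 90.3 CPM in Setd2-CD4 cre (log2 fold change 0.75 with SE 0.12, edgeR adjusted p = 0.00430). Means of Polr2e were 57.3 ± 2.97 and 96.4 ± 8.67 CPM (WT and Setd2-CD4 cre, SD, n = 2 libraries).

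Leaving out WT 13 removed the calls of Polr2a, Polr2b and Polr2f (edgeR adjusted p = 0.0673, 0.113 and 0.172), as did leaving out WT 15 (0.0642, 0.116 and 0.207), which also removed that of Polr2e (0.0613). Polr2f also missed the threshold with DESeq2 (adjusted p = 0.0745). Exons of Polr2b and Polr2f overlap 85 and 245 bases of genes on the other strand, and reads of such pairs cannot be told apart without strand. The partners, Igfbp7 with 5 to 16 counts per library and 1700088E04Rik with 0 to 5, were scarce.

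The 8 other core subunits had log2 fold changes from -0.39 (Polr2j) to 0.38 (Polr2c). Polr2c, part of the platform on which the enzyme assembles, had 34.1 and 32.3 CPM in the WT libraries against 46.3 and 40.2 CPM in Setd2-CD4 cre (log2 fold change 0.38 with SE 0.14, edgeR adjusted p = 0.0695), and its genotypes did not overlap. The same held for Polr2g, a subunit of the stalk near the emerging RNA, at 59.4 and 63.9 against 77.4 and 66.9 CPM (0.23, edgeR adjusted p = 0.199). The genotypes of Polr2d, Polr2h, Polr2i, Polr2j, Polr2k and Polr2l overlapped. Polr2j was uneven between the WT libraries, at 11.5 and 18.4 against 13.2 and 9.63 CPM (-0.39, edgeR adjusted p = 0.303). Exons of Polr2j overlap 176 bases of Lrwd1 on the other strand, which had 741 to 1021 counts per library beside 105 to 241 for Polr2j. Exons of Polr2c overlap 953 bases of Dok4 (21 to 55 counts), and those of Polr2h 82 bases of Clcn2 (34 to 109 counts), both on the other strand. Polr2k, the scarcest gene of the set, had 35 and 21 counts in the WT libraries against 18 and 17 in Setd2-CD4 cre (log2 fold change -0.36 with SE 0.44, edgeR adjusted p = 0.554), the largest standard error of the set. Polr2m, also named Gdown1, associates with the finished enzyme and can hold back initiation. Its values were 122 and 126 against 124 and 121 CPM (-0.014, edgeR adjusted p = 0.932), with overlap.

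Subunits were compared with each other as CPM per kilobase of GENCODE M21 exons. The lengths behind the deposited FPKM (counts per kilobase and per 1000000 counts) were not used for this because they exceed the whole span of the gene in Polr2e, Polr2i, Cdk9 and Paf1. In WT the highest values were those of Polr2a (51.0 and 49.8 CPM per kb) and Polr2g (47.6 and 51.2), which overlapped. Polr2b (22.6 and 22.4) and Polr2e (22.2 and 20.7) came next and lay close together. In Setd2-CD4 cre Polr2g was first (62.0 and 53.7), Polr2e (38.4 and 33.8) and Polr2a (30.1 and 35.6) overlapped, and Polr2b followed (15.2 and 16.3). Polr2f, Polr2k and Polr2l held the last 3 ranks in each of the 4 libraries, between 2.44 and 4.28 CPM per kb. The order depends on the length taken. By deposited FPKM Polr2g was first in each library and Polr2a second in both WT libraries, but Polr2f ranked 4 and 3 in WT libraries against 7 and 7 in Setd2-CD4 cre, and Polr2c, at rank 9 per kb in both WT libraries, ranked 3 and 4. The deposited length of Polr2f was 543 bases, against 2595 bases of GENCODE exons.

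**Figure D2:**
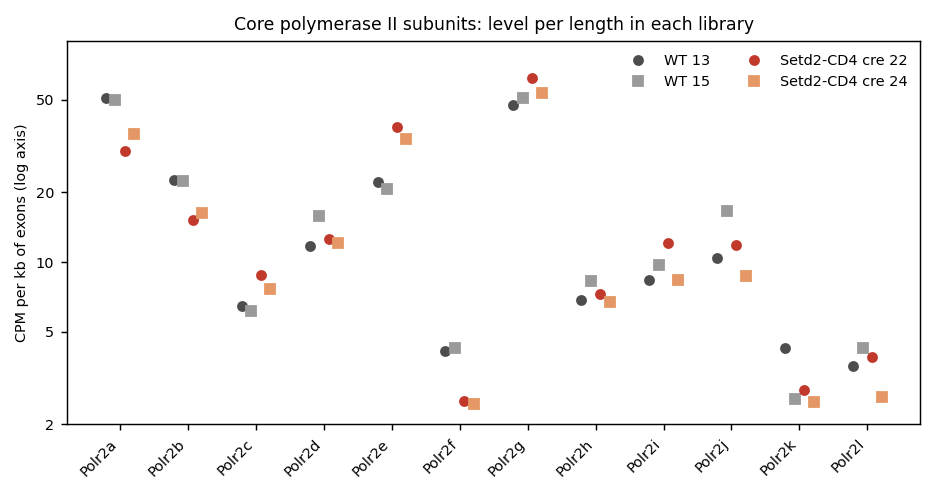
Level per length of the 12 core subunits. The y axis, on a log scale, is CPM per kilobase of GENCODE M21 exons, the x axis is the gene, and each point is 1 library. Polr2a drops from 51.0 and 49.8 in WT to 30.1 and 35.6 in Setd2-CD4 cre, where Polr2e lies at 38.4 and 33.8.

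Of the 7 kinases of the CTD and their cyclins, only Ccnk passed, and it rose. The share called was 14.3%, beside 30.7% of all tested genes (16.2% higher and 14.5% lower). Ccnk (chromosome 12, 108179579 to 108203359) encodes cyclin K, the partner of Cdk12 and Cdk13, and had 75.3 and 65.8 CPM in the WT libraries against 154 and 129.6 CPM in Setd2-CD4 cre. Means were 70.5 ± 6.70 and 142 ± 16.9 CPM (WT and Setd2-CD4 cre, SD, n = 2 libraries), a 2.01-fold rise (log2 fold change 1.01 with SE 0.13, edgeR adjusted p = 0.00208). Its partner kinases had overlapping genotypes, Cdk12 at 99.4 and 88.6 against 96.5 and 117 CPM (0.18, edgeR adjusted p = 0.320) and Cdk13 at 133 and 132 against 125 and 141 CPM (0.00050, edgeR adjusted p = 0.997).

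The pause-release kinase Cdk9 had 54.9 and 59.4 CPM in the WT libraries against 65.3 and 70.0 CPM in Setd2-CD4 cre, without overlap and without passing (log2 fold change 0.24 with SE 0.12, edgeR adjusted p = 0.153). Its cyclin partner Ccnt2 was at 148 and 138 against 168 and 197 CPM (0.35, edgeR adjusted p = 0.0553), also without overlap. The paralog Ccnt1 was at 128 and 132 against 125 and 160.5 CPM (0.14, edgeR adjusted p = 0.474), where genotypes overlapped. Cdk7, the kinase of the initiation factor TFIIH, was at 31.6 and 30.8 against 28.6 and 27.2 CPM (-0.16, edgeR adjusted p = 0.395), lower in both Setd2-CD4 cre libraries.

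P-TEFb is kept inactive in a complex with 7SK RNA, Hexim1 and Larp7. Larp7, which binds and protects 7SK RNA (chromosome 3, 127536714 to 127553349), fell, with 32.1 and 33.6 CPM in the WT libraries against 25.5 and 21.2 CPM in Setd2-CD4 cre (log2 fold change -0.49 with SE 0.15, edgeR adjusted p = 0.0430). This call was lost without WT 13, WT 15 or Setd2-CD4 cre 24 (edgeR adjusted p = 0.178, 0.263 and 0.0694) and with DESeq2 (adjusted p = 0.0864). Hexim1, the inhibitor of the kinase, had 20.6 and 17.2 CPM in the WT libraries against 18.9 and 22.1 CPM in Setd2-CD4 cre, and its genotypes overlapped (log2 fold change 0.12 with SE 0.17, edgeR adjusted p = 0.632).

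DSIF, which both holds the paused enzyme and later travels with it, held the largest difference of the set. Supt4a (chromosome 11, 87737552 to 87743623), which encodes its small subunit Spt4, had 49.0 and 48.4 CPM in the WT libraries against 173 and 149 CPM in Setd2-CD4 cre. Means were 48.7 ± 0.480 and 161 ± 17.1 CPM (WT and Setd2-CD4 cre, SD, n = 2 libraries), a 3.31-fold rise (log2 fold change 1.73 with SE 0.12, edgeR adjusted p = 0.000613). Supt5, the large subunit, had 209 and 200.2 CPM in the WT libraries against 235 and 250.5 CPM in Setd2-CD4 cre, without overlap and without passing (log2 fold change 0.25 with SE 0.10, edgeR adjusted p = 0.103). Mice have a further Spt4 gene, Supt4b, which could not be followed because its symbol is not among the deposited genes. How reads shared between such copies were counted is not given in the sources used here, so the level of Supt4a is uncertain.

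NELF joins DSIF at the pause, and 1 of its 4 genes fell. Nelfcd (chromosome 2, 174415804 to 174427502) had 57.0 and 58.1 CPM in the WT libraries against 43.2 and 42.9 CPM in Setd2-CD4 cre (log2 fold change -0.42 with SE 0.12, edgeR adjusted p = 0.0330). It did not pass without WT 13 or WT 15 (edgeR adjusted p = 0.188 and 0.239) or with DESeq2 (adjusted p = 0.0623). Its exons share 10 bases with Ctsz on the other strand, a gene with 841 to 1068 counts per library. Nelfe, the RNA-binding subunit, was at 29.7 and 26.6 against 22.3 and 17.5 CPM, without overlap and without passing (-0.50, edgeR adjusted p = 0.0576). Nelfa (0.15, edgeR adjusted p = 0.512) and Nelfb (0.14, edgeR adjusted p = 0.415) had overlapping genotypes.

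Of the 4 genes counted here for the super elongation complex (Ell, Ell2, Aff1 and Aff4) 3 rose, beside 16.2% of all tested genes called higher. The genotypes overlapped for none of the 4, beside 70.7% of all tested genes without overlap. Other genes of the complex were counted in other groups, such as Mllt3 among the further elongation factors. Ell2 (chromosome 13, 75706757 to 75772364), an elongation factor also known for its part in antibody secretion by plasma cells, had 29.8 and 29.5 CPM in the WT libraries against 75.9 and 86.6 CPM in Setd2-CD4 cre. Means were 29.7 ± 0.191 and 81.2 ± 7.54 CPM (WT and Setd2-CD4 cre, SD, n = 2 libraries), a 2.74-fold rise (log2 fold change 1.45 with SE 0.13, edgeR adjusted p = 0.000915). Of 14 B cell markers 12 rose and 0 fell, and none was at 0 in all libraries. Their summed levels were 269 and 230.1 CPM in WT 13 and 15 against 807 and 564 CPM in Setd2-CD4 cre 22 and 24. Between the Setd2-CD4 cre libraries this sum was higher in 22, while Ell2 was higher in 24. The part of B cells in the rise of Ell2 was not tested.

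Ell, its paralog (chromosome 8, 70539457 to 70592858), was at 51.0 and 47.0 against 61.7 and 67.4 CPM (log2 fold change 0.40 with SE 0.12, edgeR adjusted p = 0.0440). The scaffold gene Aff4 (chromosome 11, 53350833 to 53421830) was at 184 and 171 against 209 and 251 CPM (log2 fold change 0.38 with SE 0.12, edgeR adjusted p = 0.0492), and its paralog Aff1 at 158 and 154 against 184 and 197 CPM without passing (0.29, edgeR adjusted p = 0.0668). The calls of Ell and Aff4 lay near the threshold. Both were lost with upper-quartile factors (edgeR adjusted p = 0.108 and 0.124), with library totals (0.167 and 0.207), without WT 13 (0.173 and 0.177) and without WT 15 (0.308 and 0.315). Limma-trend on log2(FPKM + 1) gave adjusted p = 0.156 and 0.267, and DESeq2 gave Ell an adjusted p of 0.0670.

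The rises of Supt4a, Ell2 and Ccnk passed under all 11 other settings tried, with log2 fold changes of 1.55 to 1.84, 1.21 to 1.55 and 0.83 to 1.13. The other 9 called genes each missed the threshold in at least 1 setting. The same 3 genes were those both called and changed at least 2-fold, as 10.5% of all tested genes were, and those called without each library in turn, as 6.92% of all tested genes were.

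**Figure D3:**
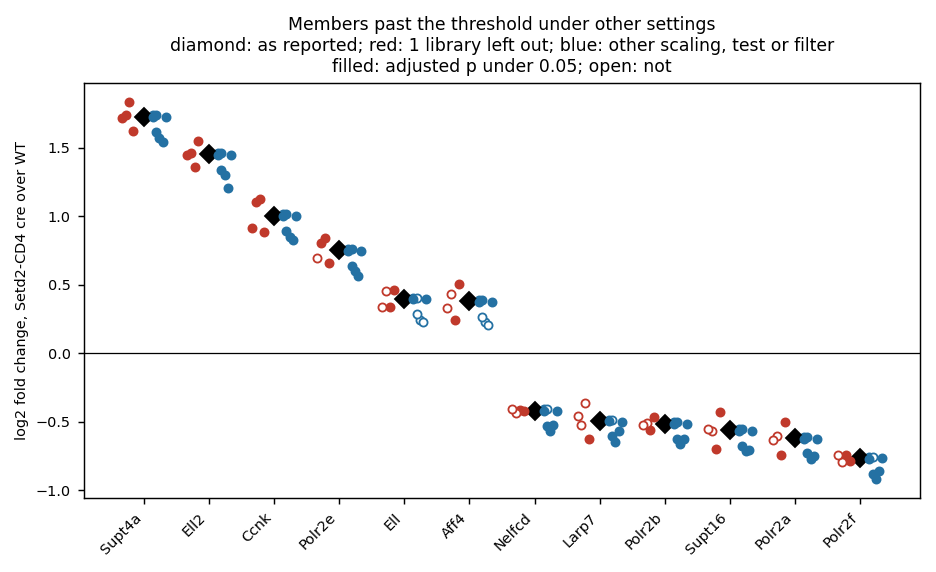
Log2 fold change (y axis) of the 12 called genes (x axis) as reported (diamonds), with 1 library left out (red) and under other scaling, tests or filters (blue). Filled points passed the threshold: those of Supt4a, Ell2 and Ccnk are all filled, and each of the other 9 genes has open points.

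The set holds 4 pairs of paralogs, whose balance was compared as the ratio of deposited FPKM in each library. The levels of these ratios rest on the deposited lengths, while the differences between genotypes do not. With 2 libraries against 2, the exact two-sided permutation test cannot go below 0.333. Ell2 over Ell was 0.494 and 0.531 in WT libraries against 1.04 and 1.09 in Setd2-CD4 cre (difference in log2 ratio 1.05, exact permutation p = 0.333, 0.444 adjusted over the pairs). Ccnt2 over Ccnt1 was 0.857 and 0.771 in WT libraries against 0.993 and 0.911 in Setd2-CD4 cre (difference in log2 ratio 0.23, exact permutation p = 0.333, 0.444 adjusted over the pairs). Cdk13 over Cdk12 was 3.19 and 3.55 in WT libraries against 3.07 and 2.87 in Setd2-CD4 cre (difference in log2 ratio -0.18, exact permutation p = 0.333, 0.444 adjusted over the pairs). Aff4 over Aff1 was 0.714 and 0.680 in WT libraries against 0.698 and 0.784 in Setd2-CD4 cre (difference in log2 ratio 0.086, exact permutation p = 0.667, 0.667 adjusted over the pairs), the only pair whose genotypes overlapped. The level of the Ell2 ratio turns with the length taken: per kilobase of GENCODE exons CPM of Ell2 were 3.03 and 3.01 in WT libraries against 7.72 and 8.81 in Setd2-CD4 cre and those of Ell were 16.4 and 15.1 in WT libraries against 19.8 and 21.7 in Setd2-CD4 cre, so that Ell2 was the lower of the pair in all 4 libraries.

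The PAF1 complex directs histone marks on transcribed genes. None of its 5 genes listed here passed the test, beside 30.7% of all tested genes. An unadjusted edgeR p under 0.05 was found for 1 of the 5, beside 5729 of 12927 tested genes. The genotypes did not overlap for 4 of the 5, beside 70.7% of all tested genes. Ctr9, the scaffold, had 60.3 and 58.6 CPM in the WT libraries against 52.4 and 64.4 CPM in Setd2-CD4 cre, with overlap (log2 fold change -0.025 with SE 0.14, edgeR adjusted p = 0.903). Cdc73, also named parafibromin, was at 91.5 and 89.8 against 105 and 127 CPM (0.36, edgeR adjusted p = 0.0641), and Paf1 at 63.9 and 67.5 against 73.1 and 75.6 CPM (0.18, edgeR adjusted p = 0.254), both higher in each Setd2-CD4 cre library. Leo1 (-0.097, edgeR adjusted p = 0.587) and Rtf1 (-0.24, edgeR adjusted p = 0.149) were lower in each.

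Of the 4 histone chaperones of elongation, Supt16 fell and the others did not pass. Supt16 (chromosome 14, 52160414 to 52197416), the large subunit of FACT, had 246 and 249 CPM in the WT libraries against 152 and 183 CPM in Setd2-CD4 cre. Means were 247 ± 1.74 and 168 ± 22.2 CPM (WT and Setd2-CD4 cre, SD, n = 2 libraries), and the difference passed the test (log2 fold change -0.56 with SE 0.12, edgeR adjusted p = 0.0121). Its call was lost without WT 13 or WT 15 (edgeR adjusted p = 0.0799 and 0.0972). Ssrp1, the other subunit of FACT, had 270.3 and 269.5 CPM in the WT libraries against 312 and 264 CPM in Setd2-CD4 cre, with overlap (log2 fold change 0.094 with SE 0.12, edgeR adjusted p = 0.565).

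Exons of Supt16 overlap 1057 bases of Rpgrip1 on the other strand, which had 57 to 134 counts per library beside 1559 to 3266 for Supt16. Supt6, which binds the linker before the polymerase tail, had 202 and 205 CPM in the WT libraries against 204 and 225 CPM in Setd2-CD4 cre, with overlap (log2 fold change 0.075 with SE 0.11, edgeR adjusted p = 0.615). Iws1, its binding partner, had 162 and 153 CPM in the WT libraries against 132 and 152 CPM in Setd2-CD4 cre, without overlap and without passing (log2 fold change -0.15 with SE 0.11, edgeR adjusted p = 0.355). Tcea1 encodes TFIIS, which rescues backtracked polymerase, and was at 144 and 150.5 against 128 and 117 CPM, likewise lower without passing (-0.26, edgeR adjusted p = 0.0990). Over the whole set the genotypes did not overlap for 26 of 42 genes, 14 higher and 12 lower in Setd2-CD4 cre, beside 70.7% of all tested genes.

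**Figure D4:**
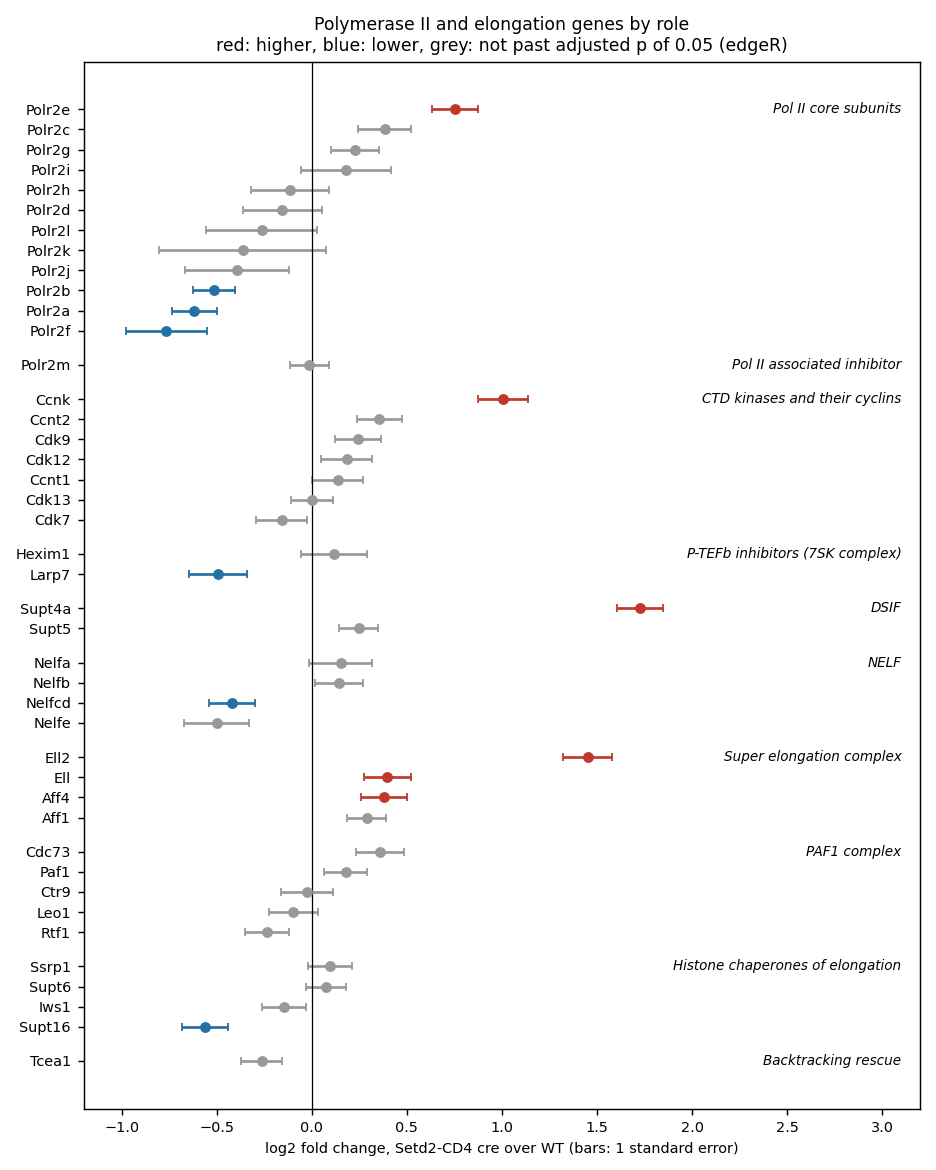
Log2 fold change (x axis, Setd2-CD4 cre over WT, bars 1 standard error from edgeR) of the 42 genes (y axis) by role. Values run from -0.77 in Polr2f to 1.73 in Supt4a, and DSIF has a called subunit (Supt4a) beside one that did not pass (Supt5).

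Other genes of transcription were counted in 7 lists that hold none of the 42. Together 25 of 159 rose and 23 fell (30.2% called, beside 30.7% of all tested genes), with a median log2 fold change of 0.056. The counts were 9 and 8 without WT 13 and 5 and 6 without WT 15. Among 24 further elongation and pausing factors 5 rose and 2 fell (median log2 fold change 0.18). The rises included Mllt3, which encodes a reader subunit of the super elongation complex (log2 fold change 0.81 with SE 0.11, edgeR adjusted p = 0.00220), Tceb3, which encodes elongin A (0.67, edgeR adjusted p = 0.00392), and the ELL partner Eaf1 (0.51, edgeR adjusted p = 0.0128).

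Of 17 phosphatases and binding proteins of the CTD 4 rose and 3 fell (median log2 fold change 0.10). The phosphatase gene Ctdsp1 fell, at 60.3 and 64.0 against 22.3 and 26.0 CPM (log2 fold change -1.36 with SE 0.14, edgeR adjusted p = 0.00122), and the CTD-binding genes Scaf8 (0.88, edgeR adjusted p = 0.00186) and Rprd2 (0.60, edgeR adjusted p = 0.00607) rose. Of 29 general transcription factors 4 rose and 5 fell (median log2 fold change -0.11). In TFIIH, Gtf2h3 fell (log2 fold change -1.52 with SE 0.17, edgeR adjusted p = 0.00134) and Gtf2h1 rose (0.90, edgeR adjusted p = 0.00802), and Gtf2f2 of TFIIF rose (0.63, edgeR adjusted p = 0.0170). Of 33 genes of Mediator, the bridge between activators and polymerase, 6 rose and 3 fell (median log2 fold change 0.062). Med15 (0.75, edgeR adjusted p = 0.00332), Med25 (0.64, edgeR adjusted p = 0.00890) and Med12 (0.61, edgeR adjusted p = 0.00936) were among the rises.

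Of 32 genes of Integrator, cleavage and termination 3 rose and 4 fell (median log2 fold change 0.084). The Integrator genes Ints6 (log2 fold change 1.21 with SE 0.11, edgeR adjusted p = 0.00103) and Ints12 (1.11, edgeR adjusted p = 0.00230) rose, and Cstf2t, a cleavage factor gene, fell (-0.89, edgeR adjusted p = 0.00408). Of 10 subunits specific to polymerase III 0 rose and 2 fell (median log2 fold change -0.12), namely Polr3k (log2 fold change -1.24 with SE 0.14, edgeR adjusted p = 0.00149) and Polr3g (-0.64, edgeR adjusted p = 0.0305). Of 14 other histone chaperones 3 rose and 4 fell (median log2 fold change -0.074). Asf1b, which handles histones during replication, fell, at 77.8 and 79.6 against 26.6 and 30.4 CPM (log2 fold change -1.47 with SE 0.13, edgeR adjusted p = 0.000915). Anp32e fell (-0.79, edgeR adjusted p = 0.00700) and Spty2d1 rose (0.58, edgeR adjusted p = 0.00722).

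**Figure D5:**
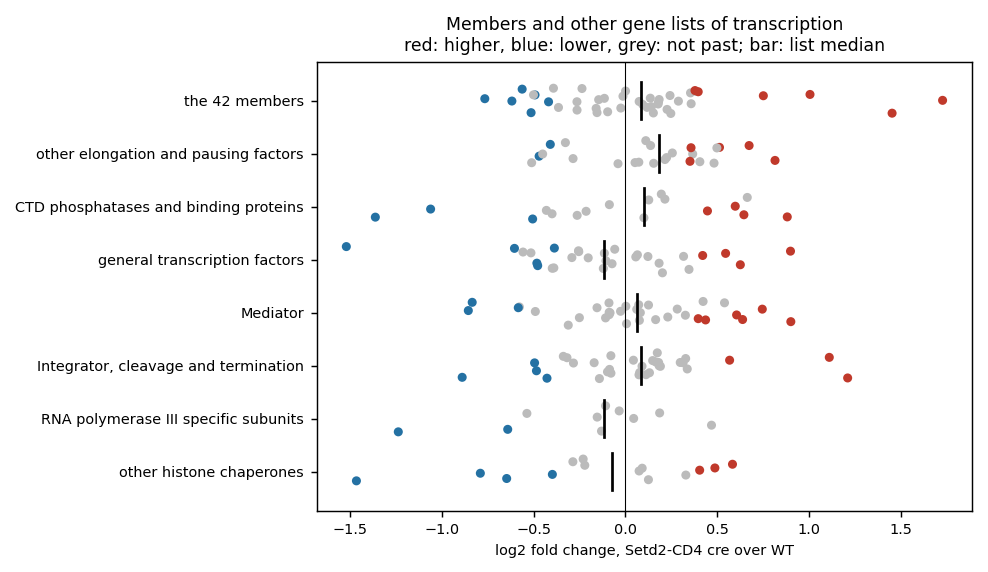
Log2 fold changes (x axis) of the 42 genes and of the 7 other lists (y axis), each point a gene and each bar a list median. Medians lie between -0.12 and 0.18, and every list but that of polymerase III holds both red (higher) and blue (lower) genes.

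Cd4 was at 1121 and 1084 against 940.2 and 1139 CPM and the Th17 cytokine gene Il17a at 163 and 202 against 570.2 and 587 CPM. Of 10 T cell genes 2 rose (Zap70 and Cd28) and 4 fell (Cd3d, Cd3e, Cd3g and Cd5), with the lowest log2 fold change in Cd3g (-0.94, edgeR adjusted p = 0.00173). Of 11 Th17 genes 5 rose and 2 fell, the latter being Il21 (-0.84, edgeR adjusted p = 0.00887) and Irf4 (-0.44, edgeR adjusted p = 0.0382). Of 24 S phase genes 19 fell, with summed levels of 3232 to 3401 CPM in WT and 2062 to 2314 CPM in Setd2-CD4 cre. Fewer of them were called lower without WT 13 or WT 15, as was the case for all tested genes. With all libraries, 16.2% of all tested genes were called higher and 14.5% lower. Of 7 tested CD8 T and NK cell markers 3 rose, of 5 tested gamma-delta T cell markers 2, and of 8 tested dendritic and myeloid markers 1. Sums were taken over all listed markers, tested or not. The 9 CD8 T and NK cell markers summed to 225 to 246 CPM in WT and 312 to 497 CPM in Setd2-CD4 cre. The 6 gamma-delta T cell markers summed to 13.6 to 17.2 CPM in WT and 37.3 to 47.4 CPM in Setd2-CD4 cre. The 11 dendritic and myeloid markers summed to 53.1 to 57.3 CPM in WT and 62.9 to 66.2 CPM in Setd2-CD4 cre. Erythroid and platelet markers summed to 0.685 to 1.52 CPM in WT and 0.458 to 0.682 CPM in Setd2-CD4 cre, and Alas2 was at 0 in all. The part of these cells and of proliferation in the results above was not tested, and in such bulk samples fewer cells of a type and less RNA per cell cannot be told apart.

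Directions also depend on how libraries are scaled. All tested genes gave 2094 higher and 1880 lower, but 1565 higher and 2617 lower with upper-quartile factors, 1409 higher and 2879 lower with library totals and 1267 higher and 2746 lower by limma-trend on log2(FPKM + 1). The median log2 fold change of all tested genes was -0.12, -0.16 and -0.12 in these settings. The 42 genes then gave 4 higher and 9 lower (all tested genes: 12.1% and 20.2%, 32.4% together), 4 higher and 9 lower (all tested genes: 10.9% and 22.3%, 33.2% together) and 4 higher and 8 lower (all tested genes: 9.8% and 21.2%, 31.0% together), in the same order. DESeq2 gave 5 higher and 3 lower (all tested genes: 14.9% and 11.4%, 26.3% together). Relative to the median of all tested genes, the median of the set lay 0.093, 0.092 and 0.048 higher, beside 0.093 as reported. That difference was 0.042 without WT 15 and 0.016 without Setd2-CD4 cre 24.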

How the data were processed

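Total RNA was sequenced in 4 libraries, grouped by their titles. The cell type label of the library titled 15 begins with 14, and its title was followed. The count columns hold whole read counts for each gene, as deposited, beside FPKM values that the authors deposited in the same table. Bowtie2, RSEM, GRCm38.p6 and mm10 are named in the submitters' processing notes, without versions or roles. RSEM estimates need not be whole, and rounding is not stated. Use of strand is not given in the sources used here. Counts were tested with edgeR 4.0.16 in R 4.3.3 (TMM, filterByExpr, robust quasi-likelihood fit, Benjamini-Hochberg adjustment over 12927 genes, threshold 0.05). The code was tested on simulated data. CPM are TMM-scaled, and each fold change puts Setd2-CD4 cre over WT. No label states that each library is a separate animal or culture, so p-values reflect variation among these samples alone, and that may be technical. Coordinates and exon lengths are from GENCODE M21 (GRCm38).

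The members, lists and tests were chosen with earlier results of these data known. Of the listed symbols 289 matched directly, 5 by synonym and 1 not. Named in full are members past the threshold and always Polr2a, Cdk9, Hexim1, Supt5, Supt6, Iws1, Ell2, Ctr9, Ssrp1, Supt16 and Setd2, with up to 3 called genes of smallest p from each other list. Alternatives were upper-quartile factors, library totals, DESeq2 size factors, DESeq2 1.42.0, limma-voom and limma-trend (limma 3.58.1, pseudocount 1 on FPKM), no filter on low counts, and leaving out each library. Some results of the marker lists are not reported here.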

Additional observations from a re-analysis of the deposited data

How the results depend on the processing

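No paired analysis was possible because the genotypes share no replicate number. Leaving out each library gave 3 to 12 members higher and 0 to 8 lower, 631 to 2943 of all tested genes higher and 473 to 2763 lower, and in the 7 other lists 5 to 35 genes higher and 6 to 32 lower. Members lower numbered 3 with DESeq2, genes of the other lists lower numbered 38 with library totals, all tested genes lower numbered 2879 with library totals, and all tested genes higher numbered 1267 by limma-trend. The median log2 fold change of the members was -0.027 with upper-quartile factors, -0.068 with library totals and -0.068 by limma-trend, and 0.0035 to 0.11 with a library left out. Setd2 passed with upper-quartile factors (-0.39), library totals (-0.43), limma-trend (-0.38) and without Setd2-CD4 cre 24, in a range of -0.32 to -0.23 over the fits with a library left out.

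Over 42 members and 11 settings, 379 results kept direction and side of the threshold, 28 lost a call, 23 gained one and 32 changed sign, none of the last in a called gene. Log2 fold changes that changed sign were, with upper-quartile factors, Cdk13 -0.11, Supt6 -0.037 and Ssrp1 -0.018, with library totals, Cdk13 -0.15, Ccnt1 -0.013, Hexim1 -0.031, Nelfb -0.0085, Supt6 -0.076 and Ssrp1 -0.059, and by limma-trend, Cdk13 -0.15, Ccnt1 -0.024, Hexim1 -0.028, Nelfa -0.0020, Nelfb -0.0072, Supt6 -0.076 and Ssrp1 -0.061. With the setting limma-voom, the value that changed sign was Cdk13 -0.0018. With the setting no filter on low counts, the value that changed sign was Cdk13 -0.0028. With a library left out, ranges that crossed 0 were -0.35 to 0.074 for Polr2d, -0.25 to 0.030 for Polr2h, -0.10 to 0.43 for Polr2i, -0.69 to 0.049 for Polr2k, -0.57 to 0.0022 for Polr2l, -0.035 to 0.0082 for Polr2m, -0.087 to 0.091 for Cdk13, -0.051 to 0.31 for Ccnt1, -0.0058 to 0.25 for Hexim1, -0.0049 to 0.30 for Nelfa, -0.18 to 0.12 for Ctr9 and -0.025 to 0.21 for Ssrp1. The cause was not tested. The standard error was largest for Polr2k (0.44), which had the fewest counts.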

Other observations

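Within the set, the libraries of each genotype differed from each other along gene length, and those of Setd2-CD4 cre are given first. Across the 42 genes, the log2 ratio of replicate 24 over 22 had a Spearman correlation of 0.67 with genomic span, beside 0.11 over 12881 tested genes. With the deposited length it was 0.66, beside 0.18 over the same tested genes, and the parts of span and deposited length were not separated. These are descriptions across genes that share both libraries and their depth. Replicate 24 was the higher one in 3 of 15 genes shorter than 10 kb, in 12 of 18 genes of 10 to 40 kb and in 8 of 9 longer ones. Over all tested genes it was higher in 1617 of 3727, 2597 of 5237 and 2234 of 3917. Polr2i, among the shortest genes of the set, had 14.7 and 10.2 CPM in replicates 22 and 24, while the long gene Cdc73 had 105 and 127 CPM. Exons of Polr2i overlap 325 bases of Tbcb on the other strand, which had 285 to 309 counts per library beside 111 to 155 for Polr2i. The WT libraries differed along span as well. WT 15 was above WT 13 in most genes shorter than 10 kb and below it in every gene of 40 kb or more but Tcea1. Some of these differences were small, with a log2 ratio of WT 15 over 13 of -0.013 in Ell2 and in Cdk13. For the WT libraries no share over all tested genes was taken, so this describes the set alone.

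The genotype difference had a Spearman correlation with span of 0.15 in the set and 0.15 over all tested genes. In the same ranges of span, 2, 1 and 3 genes of the set rose and 0, 6 and 0 fell, so the 6 that fell (Polr2a, Polr2b, Polr2f, Supt16, Larp7 and Nelfcd) all spanned 10 to 40 kb. Over all tested genes 450, 809 and 831 rose and 602, 904 and 368 fell. The ranges were chosen after the values were seen, and no test was made.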
